A study of Mus musculus with 6 samples.

Results

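Accessible chromatin was described at 9 genes that encode transcription factors of midbrain dopaminergic neurons, namely Nr4a2, Pitx3, Foxa1, Foxa2, Lmx1a, Lmx1b, En1, En2 and Otx2, out of 21900 protein-coding genes of the RefSeq annotation of GRCm38.p6 (the assembly called mm10). Every accessible region that overlapped the bounds of one of these genes extended by 100 kb on each side was taken, which gave 218 of the 193148 regions in the data. Of these, 56 overlapped a gene, 33 lay outside a gene but within 20 kb of it, and 129 lay farther away. The data are ATAC-seq read counts, which measure how open DNA is to a transposase, from the ventral tegmental area of the mouse midbrain. The comparison is between 3 libraries from Ogtflox+/Y mice and 3 from Ogtflox-/Y mice. Ogt encodes O-GlcNAc transferase, which adds a single sugar to proteins of the nucleus and cytoplasm, and the design text describes the comparison as a knockdown of Ogt. Neither genotype is assumed here to be the knockdown. Words such as rise, fall, gain and loss describe Ogtflox+/Y relative to Ogtflox-/Y. Mice of both genotypes received a Cre virus, AAV-TH-Cre, together with a Cre-dependent reporter virus, AAV-DIO-H2B-EGFP, by injection into that area, and the nuclei sorted were EGFP+. Cre is read here as driven by the tyrosine hydroxylase promoter, after the name of the vector. The mice's ages are not stated. Ogtflox+/Y replicate 1 carries Ogtflox+/Y in its genotype label but Ogtflox-/Y in its title, and the genotype label was followed. With libraries grouped by title instead, edgeR called none of the 218 regions and 0 of all 192925 tested, so that this 0 is no result about the 9 genes. Of the 218, 21 had an unadjusted p under 0.05, and DESeq2 was not run on that grouping.

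Midbrain dopaminergic neurons arise from the floor plate of the embryonic midbrain, where Otx2 and the Engrailed genes pattern the tissue and the forkhead factors Foxa1 and Foxa2 and the LIM-homeodomain factors Lmx1a and Lmx1b set up the dopaminergic programme. The nuclear receptor Nr4a2, also called Nurr1, and the homeodomain factor Pitx3 then switch on genes of dopamine synthesis and transport, such as Th. Several of the 9 factors stay on in adult neurons, where Nr4a2, Pitx3, the Foxa, Lmx1 and Engrailed factors are known for maintaining these cells, and Otx2 marks a subset of neurons in the ventral tegmental area.

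The DNA around the start sites that the results turn on is shown first, as RefSeq promoter windows on the GRCm38.p6 build, each running from 250 bases before to 50 bases after an annotated start and written 5′ to 3′ on the strand of the gene. Capitals mark matches, on either strand, to 5 fixed motifs, AAAGGTCA for NR4A factors, TAATCC for PITX and OTX factors, TAATTA for LMX and EN factors, TGTTTAC for FOXA factors and TTCNNNGAA for STAT factors. The En1 window is shown because it overlapped a start-site region that was called. The first Otx2 window is the one with a motif match of the 2 Otx2 windows that overlapped the other called start-site region. The second Otx2 window is shown because it held the most motif matches, and the Foxa1 window because it held a match to the motif of its own family.
En1 chr1:120602237-120602536 plus strand: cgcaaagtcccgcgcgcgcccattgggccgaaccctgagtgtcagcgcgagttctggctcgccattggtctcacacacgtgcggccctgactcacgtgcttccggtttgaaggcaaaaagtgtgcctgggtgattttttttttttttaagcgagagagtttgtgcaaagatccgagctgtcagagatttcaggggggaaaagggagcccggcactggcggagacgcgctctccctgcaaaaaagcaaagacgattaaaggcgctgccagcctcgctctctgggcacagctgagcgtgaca
Otx2 chr14:48667595-48667894 minus strand: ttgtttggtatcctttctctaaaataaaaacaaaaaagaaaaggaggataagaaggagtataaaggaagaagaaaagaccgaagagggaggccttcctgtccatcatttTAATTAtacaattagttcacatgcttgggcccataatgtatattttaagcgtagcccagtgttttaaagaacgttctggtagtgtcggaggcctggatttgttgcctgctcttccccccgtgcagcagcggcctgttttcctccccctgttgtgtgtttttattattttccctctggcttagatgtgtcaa
Otx2 chr14:48665060-48665359 minus strand: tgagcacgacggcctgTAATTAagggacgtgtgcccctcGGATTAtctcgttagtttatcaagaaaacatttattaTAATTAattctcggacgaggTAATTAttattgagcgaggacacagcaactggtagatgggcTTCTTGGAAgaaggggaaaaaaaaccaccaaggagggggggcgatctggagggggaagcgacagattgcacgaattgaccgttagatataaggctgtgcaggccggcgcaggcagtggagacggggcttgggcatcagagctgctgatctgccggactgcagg
Foxa1 chr12:57546062-57546361 minus strand: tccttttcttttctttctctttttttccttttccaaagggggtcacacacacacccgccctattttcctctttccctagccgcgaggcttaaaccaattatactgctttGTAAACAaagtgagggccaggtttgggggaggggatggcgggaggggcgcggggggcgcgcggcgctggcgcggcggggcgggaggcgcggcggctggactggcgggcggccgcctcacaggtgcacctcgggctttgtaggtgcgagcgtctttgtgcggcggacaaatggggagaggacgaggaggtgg
RefSeq promoter windows were matched by symbol for 8 of the 9 genes, 13 windows in all, with a GC content of 41.7% to 81.7% against a median of 52.7% over all 32851 mouse windows. TAATTA was found in 2 Otx2 windows, against 5.29% of all windows, and TAATCC and TTCNNNGAA each in 1 Otx2 window, against 7.06% and 8.3%. TGTTTAC was found in the Foxa1 window, against 3.65% of all windows, and AAAGGTCA in none of the 13, against 1.51%. No marked match overlapped a match of another motif. These are matches of letters only.

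The libraries held 42606274, 41025728 and 42678585 reads in Ogtflox+/Y replicates 1 to 3 and 34384319, 66853563 and 52895584 reads in Ogtflox-/Y replicates 1 to 3, as recovered from the deposited RPKM values. The 218 regions held 17003 to 19121 reads per library in Ogtflox+/Y and 16425 to 30362 in Ogtflox-/Y. Levels are given as CPM, the count in a region scaled to the TMM-adjusted sum of reads in regions, and 3 reads correspond to 0.117 to 0.238 CPM depending on the library, a floor that covers counting error only. The labels do not say that each library came from a separate mouse, so the p-values measure no more than library-to-library spread, which may be technical. Fewer nuclei with an open region and a less open region in each nucleus cannot be told apart in such bulk libraries. The sources used here do not say which exons of Ogt are floxed, so reads at Ogt do not check the genotype labels.

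Of the 218 regions, all of which passed the filter on low counts, 35 were higher and 24 were lower in Ogtflox+/Y than in Ogtflox-/Y at an edgeR quasi-likelihood adjusted p under 0.05. These 59 calls are 27.1% of the regions, against 28.1% of all 191693 regions tested, so the share at the 9 genes was near the background. Split by direction, 16.1% of the member regions were higher and 11.01% lower, against 15.4% and 12.7% of all regions. Their median log2 fold change was 0.020, against -0.0063 over all regions. In 56 of the 59 called regions the 3 Ogtflox+/Y libraries lay entirely above or below the 3 Ogtflox-/Y libraries. The calls rest on the same counts, so this separation is no further support for them. Such a separation was found in 42 member regions in each direction, against 21% of all regions with Ogtflox+/Y higher and 21.1% with Ogtflox+/Y lower. A change of 2-fold or more was seen in 15 of the higher and 9 of the lower regions, counts that were not set against all regions. Of the 59 called regions 34 had a mean under 5 CPM. Such levels are common anywhere, as the median level was 2.36 CPM over all regions and 2.86 CPM over the 218. The split into higher and lower moved with the scaling, from 35 and 24 with TMM to 28 and 30 with reads in regions and 20 and 54 with library totals, where the median over all regions shifted to -0.12 and -0.27. Without Ogtflox+/Y replicate 1, 32 regions were higher and 16 lower, while the lower count was 12 without Ogtflox+/Y replicate 3 and 15 without Ogtflox-/Y replicate 1. DESeq2 called 28 higher and 15 lower.

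**Figure D1:**
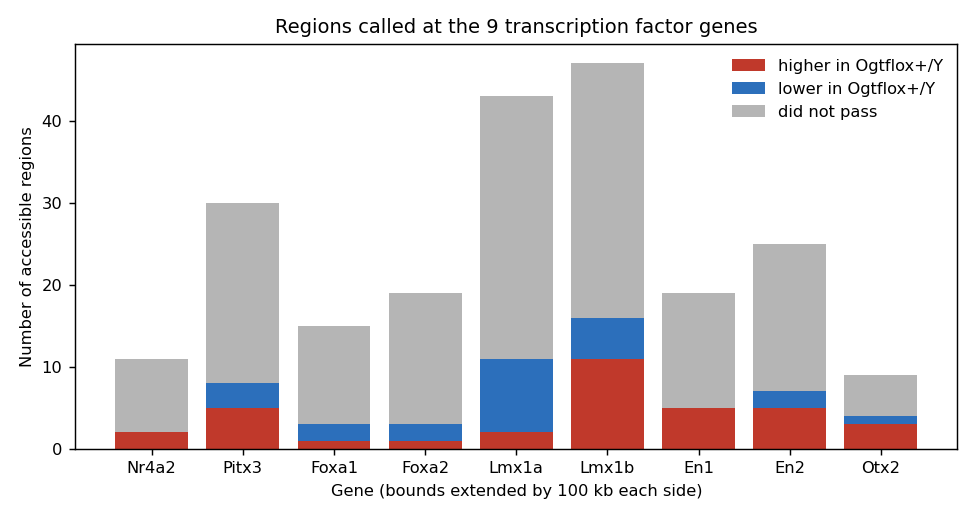
Number of accessible regions (vertical axis) within 100 kb of each gene (horizontal axis), split into regions called higher in Ogtflox+/Y, called lower in Ogtflox+/Y, and not called at an edgeR adjusted p under 0.05, from 3 libraries a group. Lmx1b has the most regions, 47, and the most calls, 11 higher and 5 lower (34.0% called, against 28.1% of all regions). Lmx1a, with 43 regions, has the most lower calls, 9 (20.9%, against 12.7% of all regions).

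Calls were counted in 3 distance classes. Regions overlapping a gene were called in 8 of 56 cases (14.3%), 6 higher and 2 lower, against 27.6% of regions that overlap any protein-coding gene (15.3% higher and 12.3% lower). Regions outside a gene within 20 kb were called in 8 of 33 cases (24.2%), 7 higher and 1 lower, against 33.3% of regions in that class of any gene (19.9% higher and 13.4% lower). Farther regions were called in 43 of 129 cases (33.3%), 22 higher and 21 lower, against 30.4% in that class (17.3% higher and 13.1% lower). No test was made of these shares against the background. Of the 218 regions, 135 had one of the 9 genes as their nearest protein-coding gene, with 22 higher and 10 lower, and 83 lay nearer to another gene, with 13 higher and 14 lower. Foxa2 was the nearest gene to all 19 regions of its window, while Pitx3 was nearest to 3 of the 30 in its window. Both directions occurred at 7 of the 9 genes, and only higher calls at Nr4a2 and En1. Without Ogtflox+/Y replicate 2 the regions overlapping a gene gave 6 higher and 5 lower calls.

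**Figure D2:**
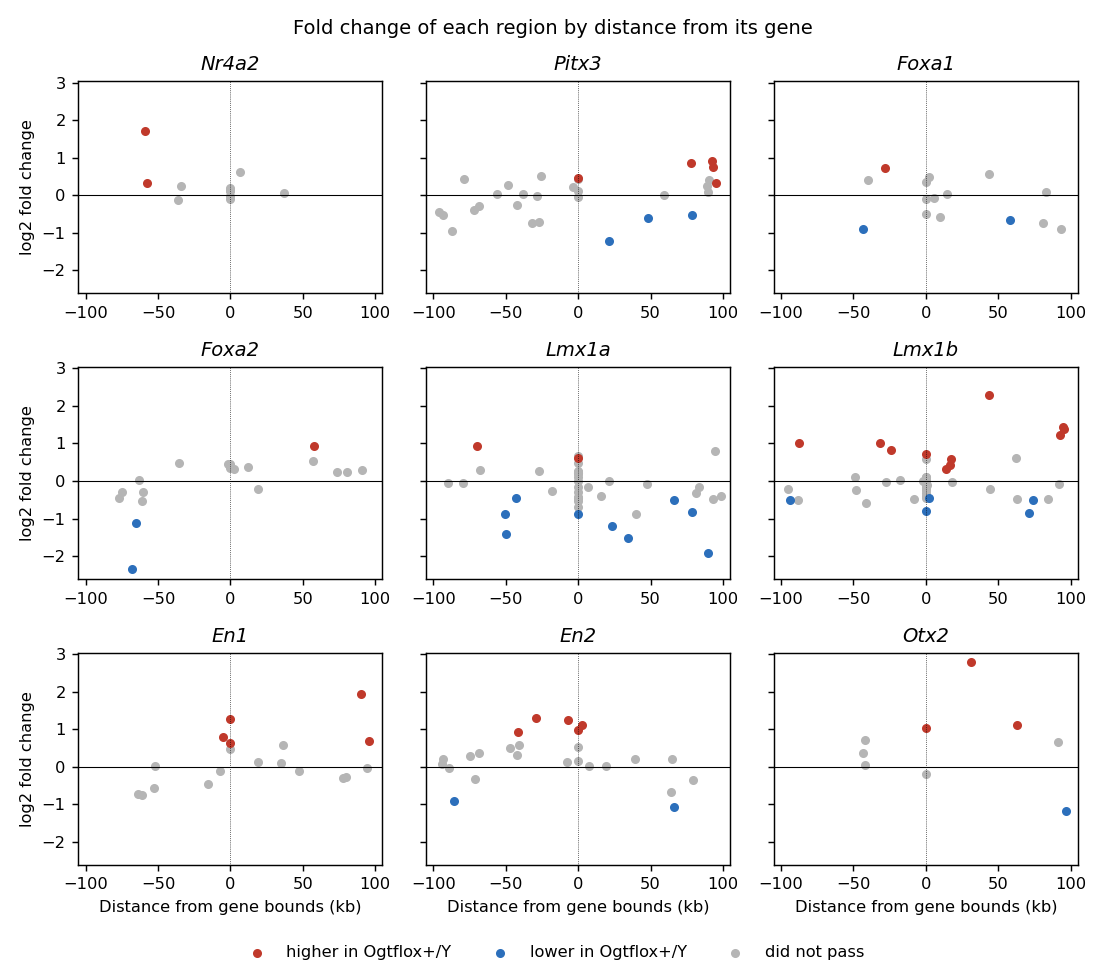
Log2 fold change of Ogtflox+/Y over Ogtflox-/Y (vertical axis) of each of the 218 regions against its distance from the bounds of its gene in kb (horizontal axis; negative is upstream, or lower coordinates for En2; regions overlapping the gene are at 0). Colour marks the edgeR call. The lower calls of Lmx1a lie mostly outside the gene, 8 of 9, while 19 of its 43 regions overlap the gene.

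At start sites, 9 regions of 7 genes overlapped a RefSeq promoter window, and 2 of them rose, at En1 and Otx2, while 7 did not pass. Of the 12791 tested regions that overlap a promoter window of any gene, 41.2% were called, 35.4% higher and 5.81% lower. No start-site region was called lower by edgeR or DESeq2, nor had one an unadjusted p under 0.05 in that direction in edgeR. The other start-site regions, at Nr4a2, Pitx3, Foxa1, Foxa2, Lmx1b and a second Otx2 start, had log2 fold changes of -0.18 to 0.45. Without Ogtflox-/Y replicate 1 only the Otx2 region was called, and without Ogtflox-/Y replicate 3 the number called was 3. It was 1 with library totals and 5, all higher, with Ogtflox+/Y replicate 2 alone.

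Nr4a2, the orphan nuclear receptor that drives genes of dopamine synthesis (chromosome 2, 57106830 to 57124003, minus strand), had 11 regions, of which 2 were called, both higher and both outside the gene. The most accessible region in the gene (57114370 to 57115130) had 18.8, 26.6 and 21.0 CPM in Ogtflox+/Y replicates 1 to 3 and 22.6, 22.0 and 26.2 CPM in Ogtflox-/Y replicates 1 to 3. The groups overlapped, with a log2 fold change of -0.097 (standard error 0.13, edgeR adjusted p = 0.59). The start-site region (57123977 to 57124377) had 7.81 ± 0.633 CPM in Ogtflox+/Y and 7.20 ± 1.35 CPM in Ogtflox-/Y (SD, n = 3 libraries each), which also overlapped. The called regions stood together 57.6 and 59 kb upstream, where the nearest annotated gene is Gm52512. At the farther one (57182977 to 57183377) the Ogtflox+/Y libraries had 3.55, 2.85 and 2.26 CPM and the Ogtflox-/Y libraries 0.760, 0.781 and 1.04 CPM. Every Ogtflox+/Y library was above every Ogtflox-/Y library there, and the log2 fold change was 1.72 (standard error 0.28, edgeR adjusted p = 0.00036). Its neighbour (57181637 to 57182037), among the most accessible regions of the window, had 35.9 ± 3.69 CPM in Ogtflox+/Y and 28.8 ± 3.67 CPM in Ogtflox-/Y (SD, n = 3 each), with overlapping groups and a log2 fold change of 0.32 (edgeR adjusted p = 0.037). DESeq2, 3 other scalings and Ogtflox+/Y replicate 2 alone did not give that call, nor did it hold without any of Ogtflox+/Y replicates 1 and 2 and Ogtflox-/Y replicates 2 and 3 (adjusted p = 0.018 to 0.78 over 13 alternatives). No region of Nr4a2 was lower in edgeR or DESeq2, nor was any at an unadjusted edgeR p under 0.05. A region 6.8 kb downstream (57099583 to 57099983) had 2.02 ± 0.458 CPM in Ogtflox+/Y and 1.31 ± 0.341 CPM in Ogtflox-/Y (SD, n = 3 each) and did not pass (edgeR adjusted p = 0.11).

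Pitx3, a homeodomain factor on which the survival of many midbrain dopaminergic neurons depends (chromosome 19, 46135281 to 46148325, minus strand), had 30 regions in a gene-dense window, with 5 higher and 3 lower. The most accessible region in the gene (46135992 to 46136392), near its 3′ end, was the one call inside it. It had 21.4, 20.5 and 25.6 CPM in Ogtflox+/Y replicates 1 to 3 and 16.9, 17.1 and 15.2 CPM in Ogtflox-/Y replicates 1 to 3. The groups were apart, with a log2 fold change of 0.46 (standard error 0.12, edgeR adjusted p = 0.0074). The call was lost with library totals, with loess curves and with Ogtflox+/Y replicate 2 alone (adjusted p = 0.0030 to 0.43 over 13 alternatives). The region at the annotated start (46148331 to 46148731) had 6.17 ± 0.912 CPM in Ogtflox+/Y and 6.34 ± 0.720 CPM in Ogtflox-/Y (SD, n = 3 each) and did not pass. The most accessible region of the whole window (46152177 to 46152577), 3.9 kb upstream and nearer to Gbf1, had 67.1, 54.0 and 58.9 CPM in Ogtflox+/Y and 54.5, 48.7 and 51.1 CPM in Ogtflox-/Y. The lowest Ogtflox+/Y library lay below the highest Ogtflox-/Y library, and the region did not pass (log2 fold change 0.22, edgeR adjusted p = 0.096), although it did without Ogtflox+/Y replicate 2 (edgeR adjusted p = 0.032). The other 7 calls lay 20 to 100 kb away, each nearer to another gene. The largest gains were 92.5 kb downstream near Ldb1, which encodes a cofactor of LIM-homeodomain proteins, and 78.1 kb downstream near Pprc1. At the first (46042339 to 46042739) the Ogtflox+/Y libraries had 9.45, 10.1 and 12.9 CPM and the Ogtflox-/Y libraries 6.00, 6.05 and 5.26 CPM (log2 fold change 0.91, edgeR adjusted p = 0.00074). At the second (46056786 to 46057186) the levels were 20.4 ± 0.924 CPM in Ogtflox+/Y and 11.1 ± 1.74 CPM in Ogtflox-/Y (SD, n = 3 each; log2 fold change 0.86, edgeR adjusted p = 0.00016). A region 21.2 kb downstream (46113665 to 46114065), nearest to Elovl3, a fatty acid elongase gene, fell to 2.16 ± 0.362 CPM in Ogtflox+/Y, against 5.11 ± 1.19 CPM in Ogtflox-/Y (SD, n = 3 each; log2 fold change -1.22, edgeR adjusted p = 0.0012). Another near Nolc1 (46086289 to 46086689) was lower by a log2 fold change of -0.60, a call lost in 8 of 13 alternatives, among them DESeq2, without Ogtflox+/Y replicate 1 or 3 and without Ogtflox-/Y replicate 1 or 2 (adjusted p = 0.0045 to 0.48).

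Foxa1, a forkhead factor that opens chromatin for other factors (chromosome 12, 57540628 to 57548029, minus strand), had 15 regions, with 1 higher and 2 lower, none in the gene or within 20 kb of it. In the gene, the region of highest level (57545726 to 57546126) overlaps the last 65 bases of the promoter window printed above, which do not hold the marked match. It had 9.30, 13.6 and 11.2 CPM in Ogtflox+/Y replicates 1 to 3 and 7.67, 8.91 and 9.99 CPM in Ogtflox-/Y replicates 1 to 3. The groups overlapped and the region did not pass (log2 fold change 0.35, standard error 0.16, edgeR adjusted p = 0.11), although it did without Ogtflox+/Y replicate 1 (edgeR adjusted p = 0.036). A region 1.9 kb downstream (57538333 to 57538733) had 2.95 ± 0.964 CPM in Ogtflox+/Y and 2.06 ± 0.944 CPM in Ogtflox-/Y (SD, n = 3 each) and did not pass either. The higher region lay 27.9 kb upstream at the neighbouring gene Ttc6 (57575935 to 57576335), with 9.15, 11.9 and 8.51 CPM in Ogtflox+/Y and 5.77, 5.51 and 6.44 CPM in Ogtflox-/Y. All Ogtflox+/Y libraries were above all Ogtflox-/Y libraries (log2 fold change 0.73, standard error 0.17, edgeR adjusted p = 0.0041), and the call was lost with library totals (edgeR adjusted p = 0.055, and 0.0017 to 0.41 over 13 alternatives). A second region at Ttc6, 43.3 kb upstream (57591334 to 57591734), fell to 2.08 ± 0.535 CPM in Ogtflox+/Y, against 3.82 ± 1.21 CPM in Ogtflox-/Y (SD, n = 3 each; log2 fold change -0.90, edgeR adjusted p = 0.018). A region at Mipol1 (57481881 to 57482281) fell to 2.60 ± 0.227 CPM in Ogtflox+/Y, against 4.18 ± 0.653 CPM in Ogtflox-/Y (SD, n = 3 each; log2 fold change -0.66, edgeR adjusted p = 0.030). The first of these losses did not pass without Ogtflox+/Y replicate 1 or 3 or Ogtflox-/Y replicate 3, and the second not in DESeq2, nor without Ogtflox+/Y replicate 1 or Ogtflox-/Y replicate 1 or 2 (adjusted p = 0.0040 to 0.52 over the alternatives of both).

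Foxa2, the related forkhead factor of the floor plate (chromosome 2, 148042877 to 148046969, minus strand), had 19 regions, with 1 higher and 2 lower, all of them more than 20 kb away. Inside the gene the top region (148046182 to 148046582) had 5.75, 10.1 and 6.05 CPM in Ogtflox+/Y replicates 1 to 3 and 4.18, 4.45 and 8.33 CPM in Ogtflox-/Y replicates 1 to 3. Replicate 2 stood highest in Ogtflox+/Y and replicate 3 in Ogtflox-/Y, and the groups overlapped (log2 fold change 0.35, standard error 0.25, edgeR adjusted p = 0.31). The region just upstream of the gene (148048475 to 148048875) had the same order of libraries, with 5.67, 11.3 and 7.31 CPM in Ogtflox+/Y and 4.63, 5.16 and 7.67 CPM in Ogtflox-/Y (edgeR adjusted p = 0.15). The first of these passed without Ogtflox-/Y replicate 3 (edgeR adjusted p = 0.047) and the second without Ogtflox+/Y replicate 1 (edgeR adjusted p = 0.038). The loss of largest size among all member regions lay 67.6 kb upstream (148114600 to 148115000), with 0.529, 1.03 and 0.133 CPM in Ogtflox+/Y and 2.05, 3.40 and 2.79 CPM in Ogtflox-/Y. All Ogtflox+/Y libraries were below all Ogtflox-/Y libraries (log2 fold change -2.35, standard error 0.40, edgeR adjusted p = 0.00048), and the Ogtflox+/Y replicate 3 value is under the level of 3 reads. A neighbour 64.9 kb upstream (148111913 to 148112313) also fell, to 2.04 ± 0.977 CPM in Ogtflox+/Y, against 4.33 ± 0.692 CPM in Ogtflox-/Y (SD, n = 3 each; log2 fold change -1.11, edgeR adjusted p = 0.0083), but not with Ogtflox+/Y replicate 2 alone. Both of these calls held when any 1 library was left out. The gain lay 57.9 kb downstream (147984617 to 147985017), with 3.02, 3.41 and 2.99 CPM in Ogtflox+/Y and 1.52, 1.60 and 1.75 CPM in Ogtflox-/Y (log2 fold change 0.94, edgeR adjusted p = 0.0063).

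Lmx1a, a LIM-homeodomain factor of dopaminergic progenitors (chromosome 1, 167688230 to 167848741, plus strand), was the gene with the most lower calls, 9 of 43 regions (20.9%, against 12.7% of all regions). Higher calls were 2 (4.65%, against 15.4% of all regions). Between 20 and 100 kb from the gene, the share of lower calls was the largest of any member and distance class. There 1 region was higher (4.76%, against 17.3% in that class of any gene) and 8 of 21 were lower (38.1%, against 13.1%). That lower count was 4 in DESeq2, 4 to 10 when a single library was left out (6 without Ogtflox+/Y replicate 1 and 4 without Ogtflox+/Y replicate 3) and 3 with Ogtflox+/Y replicate 2 alone. The most accessible region in the gene (167802637 to 167803037) went the other way, with 12.9, 13.7 and 14.4 CPM in Ogtflox+/Y replicates 1 to 3 and 8.36, 8.67 and 9.71 CPM in Ogtflox-/Y replicates 1 to 3. The groups were apart and close within themselves (log2 fold change 0.61, standard error 0.13, edgeR adjusted p = 0.0027), and the call was lost with library totals (edgeR adjusted p = 0.095, and 0.0027 to 0.41 over 13 alternatives). The other call in the gene (167746662 to 167747062) fell to 0.979 ± 0.140 CPM in Ogtflox+/Y, against 1.83 ± 0.244 CPM in Ogtflox-/Y (SD, n = 3 each; log2 fold change -0.89, edgeR adjusted p = 0.030). It was lost in DESeq2 and without any of Ogtflox+/Y replicates 1 and 3 and Ogtflox-/Y replicates 1 and 3 (adjusted p = 0.0072 to 0.52 over 13 alternatives). The largest loss lay 89.5 kb downstream (167938197 to 167938597), with 1.13, 1.19 and 0.598 CPM in Ogtflox+/Y and 3.57, 3.63 and 3.74 CPM in Ogtflox-/Y. The 3 Ogtflox-/Y libraries were almost equal and far above the Ogtflox+/Y libraries (log2 fold change -1.92, standard error 0.27, edgeR adjusted p = 0.00011). A weaker region 34.4 kb downstream (167883143 to 167883543) fell to 0.401 ± 0.177 CPM in Ogtflox+/Y, against 1.14 ± 0.0882 CPM in Ogtflox-/Y (SD, n = 3 each; log2 fold change -1.52, edgeR adjusted p = 0.012), which did not hold in DESeq2 or without Ogtflox+/Y replicate 3 (adjusted p = 0.0035 to 0.41 over 13 alternatives). Of the 8 lower regions away from the gene, 5 had Lmx1a as the nearest gene and 3 lay upstream nearer to Rxrg, which encodes a retinoid X receptor. The higher region away from the gene (167617996 to 167618396), 69.8 kb upstream and also nearest to Rxrg, had 4.18 ± 0.775 CPM in Ogtflox+/Y and 2.19 ± 0.474 CPM in Ogtflox-/Y (SD, n = 3 each; log2 fold change 0.94, edgeR adjusted p = 0.0075) and was lost without Ogtflox-/Y replicate 2 (edgeR adjusted p = 0.061, and 0.0024 to 0.63 over 13 alternatives). Upstream of the gene, the most accessible region within 20 kb (167669783 to 167670183) had 2.91 ± 0.524 CPM in Ogtflox+/Y and 3.45 ± 0.582 CPM in Ogtflox-/Y (SD, n = 3 each) and did not pass.

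Lmx1b, the paralogous LIM-homeodomain factor (chromosome 2, 33560965 to 33641208, minus strand), had the most regions, 47, and the most calls, 11 higher and 5 lower. Otx2 had a larger share called, 44.4% of 9 regions. At Lmx1b 34.0% were called, against 28.1% of all regions. Its most accessible region in the gene (33616428 to 33616828) had 21.7, 24.3 and 28.5 CPM in Ogtflox+/Y replicates 1 to 3 and 24.5, 25.1 and 26.5 CPM in Ogtflox-/Y replicates 1 to 3. The groups overlapped, with a log2 fold change of -0.029 (standard error 0.11, edgeR adjusted p = 0.87), and the start-site region (33640962 to 33641362) did not pass either, at 4.11 ± 1.33 CPM in Ogtflox+/Y and 4.30 ± 0.211 CPM in Ogtflox-/Y (SD, n = 3 each). Inside the gene 1 region fell and 1 rose. The lower one (33583329 to 33583729) had 3.25, 6.26 and 4.98 CPM in Ogtflox+/Y and 8.81, 8.01 and 8.38 CPM in Ogtflox-/Y (log2 fold change -0.80, edgeR adjusted p = 0.0070), with the groups apart. The higher one (33602845 to 33603245) had 2.75 ± 0.228 CPM in Ogtflox+/Y and 1.62 ± 0.434 CPM in Ogtflox-/Y (SD, n = 3 each; log2 fold change 0.73, edgeR adjusted p = 0.040) and was lost in 10 of 13 alternatives, among them DESeq2 and the omission of any library but Ogtflox-/Y replicate 3 (adjusted p = 0.024 to 0.49). A set of regions downstream of the gene, 13.7 to 17.2 kb away, was higher in Ogtflox+/Y, 3 in all, while 1 region 2.4 kb downstream was lower, a grouping made after the values were seen. The most accessible of the 3 (33546902 to 33547302) had 32.3, 36.1 and 37.9 CPM in Ogtflox+/Y and 32.4, 26.3 and 26.6 CPM in Ogtflox-/Y. Its groups overlapped through Ogtflox+/Y replicate 1 and Ogtflox-/Y replicate 1 (log2 fold change 0.33, edgeR adjusted p = 0.030). It was lost in 9 of 13 alternatives, among them DESeq2 and the omission of Ogtflox+/Y replicate 3 or of Ogtflox-/Y replicate 2 or 3 (adjusted p = 0.012 to 0.73). Farther downstream, 43.7 kb from the gene (33516886 to 33517286), stood the largest gain, with 2.42, 3.33 and 3.59 CPM in Ogtflox+/Y and 0.532, 0.781 and 0.521 CPM in Ogtflox-/Y. The lowest Ogtflox+/Y library was above the highest Ogtflox-/Y library (log2 fold change 2.30, standard error 0.30, edgeR adjusted p = 4.0e-05). A cluster of 3 regions at Zbtb43, 93 to 95.4 kb downstream, was higher at log2 fold changes of 1.23 to 1.45, again grouped after the values were seen, the largest of them (33466015 to 33466415) at 6.60 ± 1.19 CPM in Ogtflox+/Y and 2.37 ± 0.590 CPM in Ogtflox-/Y (SD, n = 3 each; edgeR adjusted p = 0.00021). Another region nearest to Zbtb43 (33489590 to 33489990) fell to 4.02 ± 0.457 CPM in Ogtflox+/Y, against 7.22 ± 0.362 CPM in Ogtflox-/Y (SD, n = 3 each; log2 fold change -0.84, edgeR adjusted p = 0.0025).

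En1, a homeodomain factor on which dopaminergic neurons depend for survival (chromosome 1, 120602487 to 120607991, plus strand), had 5 higher and 0 lower of 19 regions in edgeR, 4 and 0 in DESeq2, and 5 and 3 at an unadjusted edgeR p under 0.05. Without Ogtflox+/Y replicate 2, 4 were higher and 3 lower, and with library totals 2 were higher and 5 lower. In or within 20 kb of the gene 3 of 7 regions were higher, and farther away 2 of 12. Over any protein-coding gene, 15.3% of regions in the gene, 19.9% within 20 kb and 17.3% farther away were higher. Of regions at a promoter window of any gene 35.4% were higher. The start-site region (120602067 to 120602467), which overlaps the En1 window printed above, had 16.3, 13.2 and 9.57 CPM in Ogtflox+/Y replicates 1 to 3 and 7.37, 8.67 and 8.996 CPM in Ogtflox-/Y replicates 1 to 3. The lowest Ogtflox+/Y value, in replicate 3, was just above the highest Ogtflox-/Y value (log2 fold change 0.62, standard error 0.17, edgeR adjusted p = 0.011). The call was lost with library totals and without Ogtflox+/Y replicate 1 or Ogtflox-/Y replicate 1 (adjusted p = 0.0021 to 0.87 over 13 alternatives). The call inside the gene (120605108 to 120605508) had 9.38, 7.37 and 8.37 CPM in Ogtflox+/Y and 2.28, 4.18 and 3.69 CPM in Ogtflox-/Y. The groups were apart (log2 fold change 1.27, standard error 0.21, edgeR adjusted p = 0.00034). Between the start-site region and this call lay a region just inside the gene (120602831 to 120603231). It had 8.09, 7.61 and 5.12 CPM in Ogtflox+/Y and 2.74, 6.21 and 5.54 CPM in Ogtflox-/Y, with overlapping groups (edgeR adjusted p = 0.15). At 90.2 kb downstream a weak region (120698187 to 120698587) had 1.62 ± 0.605 CPM in Ogtflox+/Y and 0.402 ± 0.0880 CPM in Ogtflox-/Y (SD, n = 3 each; log2 fold change 1.93, edgeR adjusted p = 0.0019).

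En2, the second Engrailed gene (chromosome 5, 28165696 to 28172190), had 5 higher and 2 lower of 25 regions (28% called, against 28.1% of all regions). In or within 20 kb of the gene 3 of 8 regions were higher, against 15.3% in and 19.9% within 20 kb of any protein-coding gene. The most accessible region in the gene (28165430 to 28165830) had 15.6, 15.2 and 10.5 CPM in Ogtflox+/Y replicates 1 to 3 and 5.70, 12.3 and 9.80 CPM in Ogtflox-/Y replicates 1 to 3. The groups overlapped and the region did not pass (log2 fold change 0.53, standard error 0.20, edgeR adjusted p = 0.059), although it did without Ogtflox+/Y replicate 3 (edgeR adjusted p = 0.027) or Ogtflox-/Y replicate 2 (edgeR adjusted p = 0.024). At En1 and En2 alike, the most accessible region in the gene was lowest of the 6 libraries in Ogtflox-/Y replicate 1. The call in the gene (28170839 to 28171239) had 4.08, 3.01 and 2.59 CPM in Ogtflox+/Y and 1.14, 1.95 and 1.61 CPM in Ogtflox-/Y, with the groups apart (log2 fold change 0.99, edgeR adjusted p = 0.0096). A region 7 kb away (28158287 to 28158687) had 3.48 ± 0.548 CPM in Ogtflox+/Y and 1.44 ± 0.137 CPM in Ogtflox-/Y (SD, n = 3 each; log2 fold change 1.25, edgeR adjusted p = 0.0012). A region 28.8 kb away (28136502 to 28136902) had 2.07 ± 0.689 CPM in Ogtflox+/Y and 0.828 ± 0.114 CPM in Ogtflox-/Y (SD, n = 3 each; log2 fold change 1.31, edgeR adjusted p = 0.0055). The lower regions lay near Cnpy1 (28238204 to 28238604; log2 fold change -1.07, edgeR adjusted p = 0.026) and near Insig1 (28079372 to 28079772; log2 fold change -0.90, edgeR adjusted p = 0.012). The first was lost in DESeq2 and without any of Ogtflox+/Y replicates 1 and 3 and Ogtflox-/Y replicates 1 and 3, and the second without Ogtflox+/Y replicate 3 or Ogtflox-/Y replicate 3 (adjusted p = 0.0026 to 0.59 over the alternatives of both). Outside the gene, the most accessible region within 20 kb (28179773 to 28180541) had 3.08 ± 0.425 CPM in Ogtflox+/Y and 3.01 ± 0.335 CPM in Ogtflox-/Y (SD, n = 3 each) and did not pass.

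Otx2, the homeodomain factor of fore- and midbrain patterning (chromosome 14, 48656781 to 48667644, minus strand), had the fewest regions, 9, of which 3 were higher and 1 was lower. Its region at the upstream starts (48667405 to 48667805), which overlaps the first Otx2 window printed above, had 2.95, 3.33 and 3.52 CPM in Ogtflox+/Y replicates 1 to 3 and 1.75, 1.33 and 1.80 CPM in Ogtflox-/Y replicates 1 to 3. The groups were apart (log2 fold change 1.02, standard error 0.24, edgeR adjusted p = 0.0045), and the call held in every alternative but the grouping by title. The region at the start with the most motif matches (48664864 to 48665264) had 1.13, 2.06 and 1.99 CPM in Ogtflox+/Y and 2.20, 1.64 and 2.13 CPM in Ogtflox-/Y, with overlapping groups (log2 fold change -0.18, edgeR adjusted p = 0.66). It overlaps the last 205 bases of the second Otx2 window, which hold the TAATTA match at base 97 and the STAT match at base 138. The matches at bases 17, 40 and 77 lie outside it. The gain of largest size among all member regions lay 31.3 kb downstream (48625044 to 48625444), with 4.84, 0.951 and 2.19 CPM in Ogtflox+/Y and 0.152, 0.352 and 0.568 CPM in Ogtflox-/Y. The Ogtflox+/Y libraries differed among themselves, with replicate 1 highest, and all were above the Ogtflox-/Y libraries (log2 fold change 2.78, standard error 0.50, edgeR adjusted p = 0.00069). The Ogtflox-/Y replicate 1 value is under the level of 3 reads, and the call was lost with Ogtflox+/Y replicate 2 alone (adjusted p = 1.8e-06 to 0.94 over 13 alternatives). Both remaining calls lay nearest to Tmem260. The higher one (48593447 to 48593847) had 1.91 ± 0.509 CPM in Ogtflox+/Y and 0.854 ± 0.246 CPM in Ogtflox-/Y (SD, n = 3 each; edgeR adjusted p = 0.014) and was lost in DESeq2 and without Ogtflox+/Y replicate 1 or Ogtflox-/Y replicate 1 or 2 (adjusted p = 0.011 to 0.64 over 13 alternatives). The lower one (48559807 to 48560207) had 1.09 ± 0.426 CPM in Ogtflox+/Y and 2.47 ± 0.282 CPM in Ogtflox-/Y (SD, n = 3 each; log2 fold change -1.19, edgeR adjusted p = 0.0061).

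**Figure D3:**
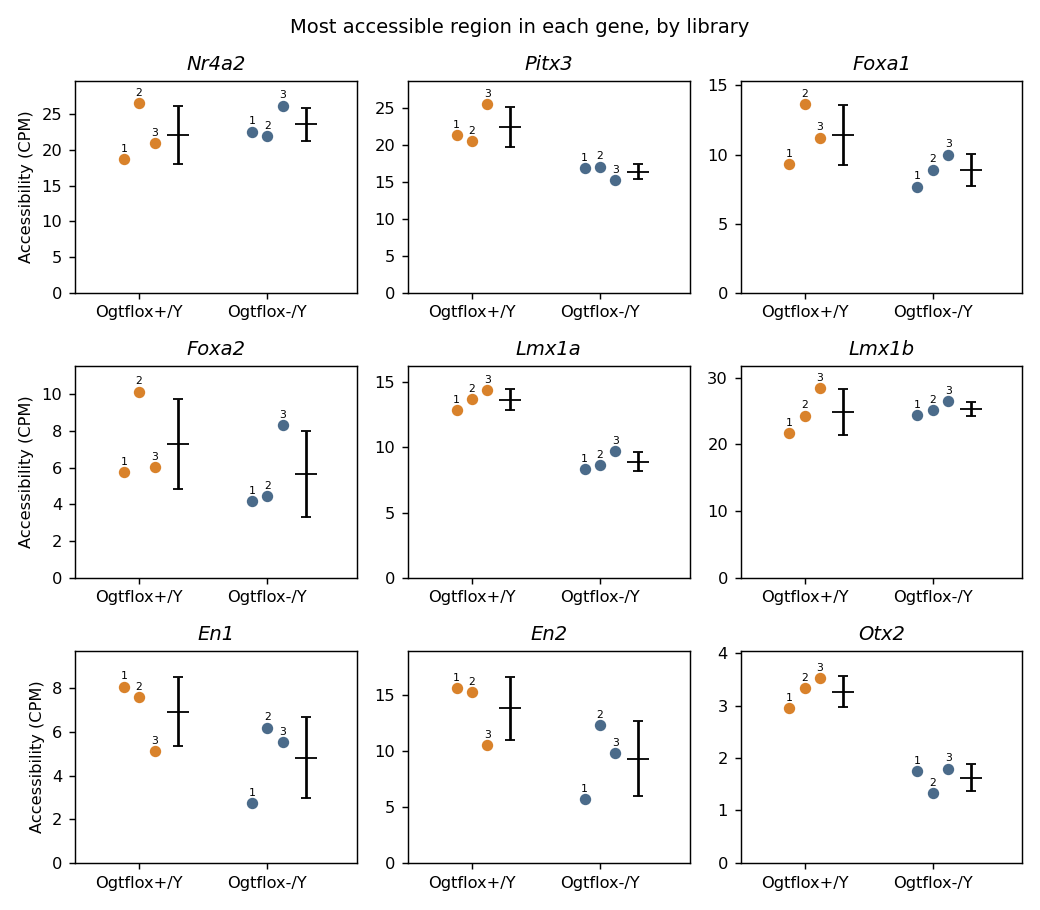
CPM (vertical axis, from 0) in each library at the most accessible region that overlaps each of the 9 genes; numbered points are replicates 1 to 3, Ogtflox+/Y left and Ogtflox-/Y right, with the mean and SD of 3 libraries. The groups are apart at Pitx3, Lmx1a and Otx2 and overlap at the other 6 genes.

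Summed over the gene and its flanks, none of the 9 genes passed. Reads in the gene and within 20 kb were summed for every protein-coding gene and tested with edgeR, scaled on these sums; 37.5% of 18420 genes passed, 17.9% higher and 19.6% lower, and 0 of the 9 genes did. At an unadjusted p under 0.05, 2 of the 9 were higher and 0 lower in edgeR, and DESeq2 also called 0. En1 had 29.4, 30.1 and 20.3 CPM in Ogtflox+/Y replicates 1 to 3 and 17.1, 23.6 and 22.8 CPM in Ogtflox-/Y replicates 1 to 3, on the scale of the gene sums. En2 had 26.8, 27.2 and 21.8 CPM in Ogtflox+/Y and 14.5, 23.5 and 21.8 CPM in Ogtflox-/Y. In both, Ogtflox+/Y replicate 3 and Ogtflox-/Y replicate 1 were the lowest of their groups, with log2 fold changes of 0.31 (standard error 0.14, edgeR adjusted p = 0.080) and 0.32 (standard error 0.14, edgeR adjusted p = 0.075). En1 passed without Ogtflox+/Y replicate 3 (edgeR adjusted p = 0.015), En2 without Ogtflox-/Y replicate 2 (edgeR adjusted p = 0.024), and Nr4a2 passed as lower without Ogtflox+/Y replicate 2 (edgeR adjusted p = 0.033). The other 7 genes had log2 fold changes of -0.13 to 0.34. The scaling factors of the region fit gave a median over all genes of 0.14, with 6501 of 18419 genes higher and 1518 lower. Under them Pitx3, En1 and En2 passed as higher at log2 fold changes of 0.25, 0.46 and 0.47. With loess curves En2 and Otx2 passed as higher, with Ogtflox+/Y replicate 2 alone En1 did, and with library totals, where the median over all genes was -0.12, Nr4a2 passed as lower.

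Between 20 and 100 kb from each gene 34.4% of 19657 genes passed, 16.6% higher and 17.8% lower, and of the 9 genes Lmx1a alone did, as lower. Its 21 regions summed to 37.1, 38.9 and 35.1 CPM in Ogtflox+/Y replicates 1 to 3 and 46.4, 48.0 and 51.1 CPM in Ogtflox-/Y replicates 1 to 3. The groups were far apart for their spread (37.0 ± 1.89 CPM in Ogtflox+/Y and 48.5 ± 2.39 CPM in Ogtflox-/Y; SD, n = 3 each), with a log2 fold change of -0.39 (standard error 0.058, edgeR adjusted p = 4.7e-05). That call held in 13 of 14 alternatives, at log2 fold changes of -0.53 to -0.26, and was lost when libraries were grouped by title (edgeR adjusted p = 0.41). The Lmx1a gene with its 20 kb flanks summed to 39.3 ± 6.60 CPM in Ogtflox+/Y and 40.8 ± 8.60 CPM in Ogtflox-/Y (SD, n = 3 each; log2 fold change -0.059, edgeR adjusted p = 0.74). The difference between the near and the far sum was not tested. Without Ogtflox+/Y replicate 2 the far sums of Foxa2 (log2 fold change -0.53) and En1 (-0.29) also passed as lower, and without Ogtflox+/Y replicate 3 that of Nr4a2 (0.32) as higher. Other scalings changed the set too. Library totals, under which the median over all genes was -0.14, gave 4 lower sums, at Foxa2, Lmx1a, Lmx1b and En1, while loess curves and the factors of the region fit, with a median of 0.13 for the factors, each gave Nr4a2 and Otx2 as higher beside Lmx1a as lower.

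**Figure D4:**
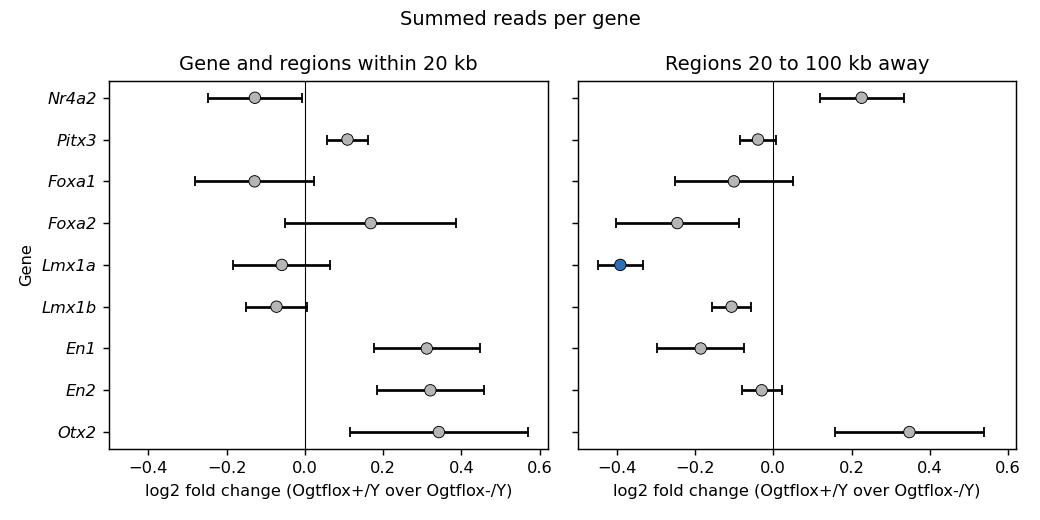
Log2 fold change of Ogtflox+/Y over Ogtflox-/Y (horizontal axis) of reads summed per gene (vertical axis), over the gene and its 20 kb flanks (left) and over regions 20 to 100 kb away (right); bars are the standard error of the edgeR fit on 3 libraries a group. The 1 coloured point is the called sum, Lmx1a between 20 and 100 kb at -0.39.

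The libraries of a group shared an order at most of the 9 genes in the near sums. Ogtflox+/Y replicate 2 was the highest of its group at 8 of the 9, all but Pitx3, and Ogtflox+/Y replicate 1 was the lowest at 6. In Ogtflox-/Y, replicate 3 was the highest at 6 of the 9, namely Nr4a2, Foxa1, Foxa2, Lmx1a, Lmx1b and Otx2. At Foxa2 this gave 14.4, 29.2 and 17.2 CPM in Ogtflox+/Y replicates 1 to 3 and 13.6, 15.1 and 24.7 CPM in Ogtflox-/Y replicates 1 to 3, on the scale of the gene sums. Markers of other cell types were summed on the same scale, where 37.5% of all genes were called. All 8 astrocyte markers had regions and none was at 0, and their sum was 366, 314 and 374 CPM in Ogtflox+/Y replicates 1 to 3, so that Ogtflox+/Y replicate 2 was the lowest of its group, against 300 to 316 CPM in Ogtflox-/Y. These groups overlapped, while with the factors of the region fit every Ogtflox+/Y library was above every Ogtflox-/Y library. Gfap and Aqp4 were called higher, with 4 astrocyte markers higher under the factors of the region fit. Those factors raised genes in general, with 6501 of 18419 genes called higher and 1518 lower, and a median log2 fold change of 0.14. The 8 GABAergic markers, all with regions and none at 0, summed to 331 to 359 CPM in Ogtflox+/Y and 269 to 319 CPM in Ogtflox-/Y, with 4 called higher, and all 8 under the factors of the region fit. The 8 oligodendrocyte markers, again all with regions, summed to 242 to 308 CPM in Ogtflox+/Y and 274 to 288 CPM in Ogtflox-/Y. Of these Mog, Sox10 and Mag were called higher and Mbp lower. Mag had 9.28, 1.37 and 1.28 CPM in Ogtflox+/Y replicates 1 to 3 and 0.943, 1.57 and 1.47 CPM in Ogtflox-/Y. Without Ogtflox+/Y replicate 1 its log2 fold change was -0.045 (edgeR adjusted p = 0.93). The groups also overlapped at Sox10, whose call was lost in 7 of 14 alternatives, against 4 for Mog and 2 for Mbp. All 6 microglia markers summed to 109.1 to 111.3 CPM in Ogtflox+/Y and 111.0 to 119.3 CPM in Ogtflox-/Y, with overlapping groups. Cx3cr1 and P2ry12 were called lower and 0 higher. With the factors of the region fit Aif1 and Tmem119 were called higher beside these 2 as lower. The 9 transcription factor genes summed to 331 to 416 CPM in Ogtflox+/Y and 342 to 401.1 CPM in Ogtflox-/Y, with overlapping groups. The part of these markers in the values at the 9 genes was not tested.

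The labelled cell type was set beside 16 effector genes of dopaminergic neurons. All 16 had regions within 20 kb, and open chromatin there does not measure their transcripts. Ranked among 18433 genes by CPM per kb of the gene and its 20 kb flanks, averaged over the 6 libraries, 5 of the 16 lay above the median gene and 11 below. Th, the gene of the rate-limiting enzyme of dopamine synthesis, was at the top of all genes, while Slc6a3, the dopamine transporter gene, was at the 10.4th percentile and Slc18a2, the vesicular monoamine transporter gene, at the 32.9th. The 8 astrocyte markers also lay on both sides of the median gene on this measure. Gfap, Aldh1l1 and S100b were at percentiles 77.9, 67.5 and 78.3. Slc1a2, Sox9, Slc1a3, Aqp4 and Gja1 were at percentiles 45.1, 30.8, 22.4, 16.8 and 15.97. Of the 447 tested regions within 100 kb of the 16 genes, 62 were higher and 60 lower in Ogtflox+/Y (27.3% called, against 28.1% of all regions), with a median log2 fold change of -0.095. Summed within 20 kb, 6 of the 16 were called (37.5%, against 37.5% of all genes), Aldh1a1 as higher and Th, Vip, Cck, Kcnj6 and Ntsr1 as lower. Over 14 alternatives the Vip call was lost in 9, that of Kcnj6 in 2, and those of Cck and Ntsr1 in 1 each. Aldh1a1, a retinaldehyde dehydrogenase gene, had 15.2, 9.77 and 11.02 CPM in Ogtflox+/Y replicates 1 to 3 and 6.70, 6.75 and 10.2 CPM in Ogtflox-/Y replicates 1 to 3. Those groups overlapped, and the call (log2 fold change 0.60, standard error 0.18, edgeR adjusted p = 0.017) was lost without Ogtflox+/Y replicate 1 and without Ogtflox-/Y replicate 1 or 2 (adjusted p = 0.00089 to 0.88 over 14 alternatives). Th had 276, 232 and 208 CPM in Ogtflox+/Y and 234, 550 and 367 CPM in Ogtflox-/Y, with overlapping groups and Ogtflox-/Y replicate 2 far above the others. Its log2 fold change was -0.69 (standard error 0.19, edgeR adjusted p = 0.011), and -0.33 without Ogtflox-/Y replicate 2 (edgeR adjusted p = 0.077). The Th call was also lost in DESeq2 (adjusted p = 0.13) and without Ogtflox+/Y replicate 3 (edgeR adjusted p = 0.090, and 4.7e-08 to 0.36 over 14 alternatives). In every library 92.3% to 97.1% of the reads within 20 kb of Th fell in 3 regions within 2 kb of its upstream bound, a count made after the values were seen. The other 5 regions summed to 13.6, 17.9 and 13.1 CPM in Ogtflox+/Y and 15.8, 15.9 and 17.1 CPM in Ogtflox-/Y. The injected Cre vector is named after the same gene's promoter, and whether its DNA added reads there was not tested. Cck, a neuropeptide gene, was at a log2 fold change of -0.78 (standard error 0.10, edgeR adjusted p = 6.0e-05), with every Ogtflox+/Y library below every Ogtflox-/Y library. At 24 other transcription factor and signalling genes of the midbrain and of neurons, 124 of 834 tested regions were higher and 86 lower (25.2% called), with a median of 0.018. Summed within 20 kb, 8 of the 24 were called (33.3%, against 37.5% of all genes), of which 6 were higher, namely Msx1, Sox6, Nr4a3, Otx1, Lmo3 and Pax5, and 2 were lower, namely Wnt1 and Shh. Over 14 alternatives the call was lost in 10 at Sox6, 8 at Lmo3 and 5 at Wnt1. It was lost in 3 at Msx1 and at Pax5, 2 at Otx1, and 1 at Nr4a3 and at Shh. The groups overlapped at Sox6 and Lmo3. Nr4a3, a nuclear receptor of the same family as Nr4a2, was at a log2 fold change of 0.55 (standard error 0.060, edgeR adjusted p = 1.4e-05), and Otx1, the paralogue of Otx2, at 0.56 (standard error 0.14, edgeR adjusted p = 0.0048). Shh, the floor plate signal upstream of Foxa2 in development, was at -0.59 (standard error 0.067, edgeR adjusted p = 1.8e-05).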

How the data were processed

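ATAC-seq libraries of 3 Ogtflox+/Y and 3 Ogtflox-/Y samples were analysed, grouped by the genotype label. Per the submitters' processing notes, which give no roles, the tools were FastQC, MACS2, BWA, Picard, SAMtools 1.9 and Trimmomatic, on build mm10. How reads were counted, whether they were shifted for the transposase and how the shared regions were defined is, in the sources used here, not given. Per the labels' protocols, the library kit is one for general DNA.

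The deposited counts are whole numbers of reads per region, without normalization, on 193148 regions common to all libraries, of which 94.6% are 401 bp wide. The deposited RPKM values are proportional to counts over region width, and served only to recover each library's total. The deposited score is the count scaled by a factor of the library and was not tested.

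Counts over all regions were compared in edgeR 4.0.16 under R 4.3.3 by its quasi-likelihood test (TMM scaling, the package's filter on low counts, group as the only term). P-values were adjusted by the Benjamini-Hochberg method over the 191693 regions tested, and a call needs an adjusted p under 0.05. Reads summed per protein-coding gene were tested likewise over all genes. Both tests were checked on simulated data. CPM levels use the TMM-adjusted sum of a library's reads in regions, and fold changes are log2 of Ogtflox+/Y over Ogtflox-/Y. Standard errors were computed from the fold change and the test statistic.

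The members and the gene lists were chosen with earlier results of these data known. Regions named for each gene are the most accessible one in the gene and outside it within 20 kb, every call in the gene, and, per direction, the 2 calls with the largest fold change. A few others were picked once their values were known. Gene bounds and promoters are RefSeq's for GRCm38.p6, matched by symbol.

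Alternatives were DESeq2 1.42.0, no filter on low counts, grouping by title, and scaling by reads in regions, by loess curves (R's lowess function) or by library totals. Others were each library left out in turn, Ogtflox+/Y replicate 2 alone, a window of 50 kb and regions nearest to a member only. In the fit with Ogtflox+/Y replicate 2 alone, 1 library is assumed to vary like the other group. Scaling the gene sums with the factors of the region fit was chosen after seeing the data. No genome sequence was used here, so regions were not placed in exons, introns or UTRs.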

Additional observations from a re-analysis of the deposited data

How the results depend on the processing

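Of the 218 regions, 35 were higher and 24 lower in Ogtflox+/Y. The higher count was 20 with library totals, 20 in windows of 50 kb and 22 for regions nearest to a member, and the lower count was 54, 10 and 10 there. Grouped by title, edgeR called 0 in either direction, as it did of all 192925 regions tested, with 21 members at an unadjusted p under 0.05. DESeq2 gave 15 lower regions and Ogtflox+/Y replicate 2 alone gave 8. With 1 library left out the higher count was 27 to 34 and the lower count 12 to 35. The smaller windows hold fewer regions, and for the other settings the cause was not tested. Of 36 named calls, all were lost when grouped by title, 14 of them under no other alternative, while 19 were lost with Ogtflox+/Y replicate 2 alone, 9 in DESeq2 and 7 with library totals. The tests at single regions rest on a median of 35 to 70 reads a library, which limits what small changes can be seen. No paired analysis was possible because the title numbers of the groups are not shared.

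Signs were compared for the named regions and the gene sums only. Among these, reversed signs occurred only at regions and sums that had not passed. By title, log2 fold changes reversed to 0.073 (Nr4a2, 57114370), 0.10 (Lmx1b, 33616428) and -0.073 (En2, 28179773). With library totals they reversed to -0.041 (Pitx3, 46152177) and -0.24 (En2), with reads in regions to -0.080 (En2), with loess curves to -0.12 (Pitx3) and with Ogtflox+/Y replicate 2 alone to 0.15 (Nr4a2). With 1 library left out these regions ranged from -0.26 to 0.019 (Nr4a2), -0.12 to 0.073 (Lmx1b) and -0.051 to 0.17 (En2).

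Sums within 20 kb reversed by title to 0.082 (Nr4a2), 0.17 (Foxa1), 0.15 (Lmx1a) and 0.11 (Lmx1b), and with Ogtflox+/Y replicate 2 alone to 0.16, 0.19, 0.13 and 0.073 for the same genes. With the factors of the region fit they reversed to 0.012, 0.010, 0.083 and 0.063, and with library totals Pitx3 reversed to -0.015. With 1 library left out the ranges were -0.29 to 0.014 (Nr4a2), -0.31 to 0.045 (Foxa1), -0.18 to 0.48 (Foxa2), -0.16 to 0.13 (Lmx1a) and -0.15 to 0.035 (Lmx1b).

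Sums from 20 to 100 kb reversed by title to 0.0035 (Pitx3) and -0.014 (Otx2), and with loess curves to 0.052 (Foxa1). With Ogtflox+/Y replicate 2 alone they reversed to 0.015 (Pitx3), 0.19 (Foxa1), 0.21 (Foxa2) and 0.00051 (En1). With the factors of the region fit, where the median over all genes was 0.13, they reversed to 0.087 (Pitx3), 0.028 (Foxa1), 0.021 (Lmx1b) and 0.0995 (En2). With 1 library left out Foxa1 ranged from -0.26 to 0.026.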

Other observations

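Among the other gene lists, regions of the 4 serotonergic markers were called in 42.5% of 87 cases, 21 higher and 16 lower in Ogtflox+/Y, against 28.1% of all regions (15.4% higher and 12.7% lower). Those of the 3 glutamatergic markers were called in 30.8% of 78 cases, 12 higher and 12 lower, and those of the 4 endothelial markers in 31.5% of 89 cases, 14 higher and 14 lower. Summed within 20 kb on the scale of the gene sums, where 37.5% of all genes were called, the serotonergic markers had 67.8 to 83.0 CPM in Ogtflox+/Y and 68.2 to 88.0 CPM in Ogtflox-/Y, with Gata3 called higher and Fev and Slc6a4 lower. The glutamatergic markers had 85.9 to 104 CPM in Ogtflox+/Y and 123.5 to 134 CPM in Ogtflox-/Y, with 2 of the 3 genes, Slc17a7 and Slc17a8, called lower. The endothelial markers had 48.2 to 49.8 CPM in Ogtflox+/Y and 50.1 to 57.2 CPM in Ogtflox-/Y, with Cldn5 called lower, and those groups overlapped with the factors of the region fit.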
